A study of Mus musculus with 10 samples.

Results

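Leukocyte adhesion molecules and selectins were followed in mouse liver through 9 genes, namely Icam1, Icam2, Vcam1, Sele, Selp, Selplg, Itgal, Itga4 and Itga5. They were chosen by name as a functional group, with earlier results of these data known, and found by Ensembl identifier among the 38922 genes of the deposited tables. Each of the 9 identifiers was present. Livers came from male mice of the inbred strain C57Bl/6N aged 6 weeks, for which the labels name no genetic change. One group of 5 mice was injected intraperitoneally with CD95-Ab, which is an antibody that activates the death receptor CD95 (Fas), at 0.5 µg/g, and the other 5 were injected with saline. Livers of all 10 mice were taken 6 h after the injection, and each mouse gave its own library. Because whole liver was sequenced, more cells of a type and more RNA per cell cannot be told apart in any value below.

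Leukocytes leave the blood in steps. Selectins on activated endothelium (Sele, E-selectin, and Selp, P-selectin, which platelets also carry) catch rolling leukocytes by their glycoprotein ligand PSGL-1, the product of Selplg. Firm arrest follows when leukocyte integrins bind immunoglobulin-like molecules on the vessel wall. LFA-1, made of the α chain encoded by Itgal and the β chain encoded by Itgb2, binds ICAM-1 and ICAM-2, whereas VLA-4, made of the chains encoded by Itga4 and Itgb1, binds VCAM-1 and fibronectin. Itga5 encodes the α chain of the fibronectin receptor and is expressed by many cell types besides leukocytes. Icam1, Vcam1 and Sele are well-known targets of NF-κB in cytokine-activated endothelium. The capillaries of the liver, the sinusoids, are known for recruiting neutrophils with little need for selectins, through ICAM-1 and other adhesion molecules.

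Promoter sequences are shown for Icam1, Sele and Selp, which had the largest increases among the 9 genes. The RefSeq windows (GRCm38.p6, plus strand) cover 250 bases before and 50 bases after the annotated start. Capitals mark exact matches on either strand to GGNNNTTCC, a loose form of the NF-κB site, or to TGANTCA, the AP-1 form.
Icam1, chr9:21015690-21015989: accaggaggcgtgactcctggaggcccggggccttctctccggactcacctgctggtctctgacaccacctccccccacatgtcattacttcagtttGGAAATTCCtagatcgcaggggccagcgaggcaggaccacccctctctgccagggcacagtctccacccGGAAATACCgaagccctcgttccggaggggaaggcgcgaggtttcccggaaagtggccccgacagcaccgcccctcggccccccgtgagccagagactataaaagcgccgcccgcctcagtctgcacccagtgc
Sele, chr1:164047984-164048283: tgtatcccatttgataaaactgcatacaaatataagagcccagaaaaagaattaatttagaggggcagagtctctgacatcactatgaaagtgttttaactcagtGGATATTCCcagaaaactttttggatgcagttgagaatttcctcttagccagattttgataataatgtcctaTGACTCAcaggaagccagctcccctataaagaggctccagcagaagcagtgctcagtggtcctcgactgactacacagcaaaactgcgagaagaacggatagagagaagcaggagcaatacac
Selp, chr1:164115014-164115313: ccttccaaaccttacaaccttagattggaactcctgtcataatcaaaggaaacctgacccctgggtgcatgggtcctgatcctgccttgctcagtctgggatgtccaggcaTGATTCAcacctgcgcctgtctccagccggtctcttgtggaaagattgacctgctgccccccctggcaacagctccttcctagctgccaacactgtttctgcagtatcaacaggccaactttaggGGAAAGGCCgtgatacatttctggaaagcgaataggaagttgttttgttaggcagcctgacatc
With the annotated start counted as base 0, the NF-κB form stood at bases -153 to -145 and -84 to -76 of Icam1, at -145 to -137 of Sele and at -14 to -6 of Selp. The match of Icam1 at -153 fulfils the form on both strands, and that at -84 shares 4 bases with a match to CCGGAA, the ETS form, at -86 to -81. Further matches of Icam1 to CCGGAA stood at -65 to -60, on the opposite strand, and at -39 to -34. The AP-1 form stood at -73 to -67 of Sele and at -139 to -133 of Selp. Of all 32851 windows, 18.5% held GGNNNTTCC, 7.81% held TGANTCA and 14.9% held CCGGAA. Windows were also found for Itga5, which held GGNNNTTCC at -137 to -129, and for Itga4, which held none of these forms. None of these 5 windows held TTGCNNAA, the C/EBP form, which is in 10.8% of all windows, or the stricter NF-κB consensus, which is in 8.46%. For Icam2, Vcam1, Selplg and Itgal no window was found. A match is a description of the letters and not evidence of binding.

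Depth ranged from 25965699 to 62097636 expected counts per mouse. CPM are counts scaled to 1000000 of a total adjusted by TMM, a factor that discounts a few very abundant genes, and on this scale 3 counts correspond to 0.056 to 0.121 CPM. Albumin took 7.72% to 9.65% of the counts in saline-injected controls and 2.88% to 5.44% after CD95-Ab, mitochondrial transcripts took between 7.56% and 22.1% over all mice, and Rn7sk, an RNA without a poly(A) tail, rose from 0.392 ± 0.241 to 742 ± 354 CPM (SD, n = 5 per group). The part of RNA quality or library preparation in the changes below was not tested. In the labels no batch is given, and groups could not be compared within batches.

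All 9 genes were higher after injection of CD95-Ab (FDR from 4.11e-07 to 0.00175, edgeR's quasi-likelihood test), against 25.4% of all 13719 tested genes. Changed in either direction were 6495 genes, or 47.3%. An FDR, a Benjamini-Hochberg adjusted p-value over all tested genes, of 0.05 or less was called a change. Of the 9 genes, 5 also passed the study's additional threshold, a log2 fold change of at least 2, as did 6.59% of tested genes. The median log2 fold change of the 9 genes was 2.29, against 0.01 for all tested genes. In each of the 9 genes the lowest mouse injected with CD95-Ab was above the highest saline-injected control, which held for 18.6% of tested genes. Sele was the only one of them that no saline-injected mouse expressed at 10 counts or more, so it entered the test through the CD95-Ab group alone. The plot of CPM by mouse shows these values.

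**Figure D1:**
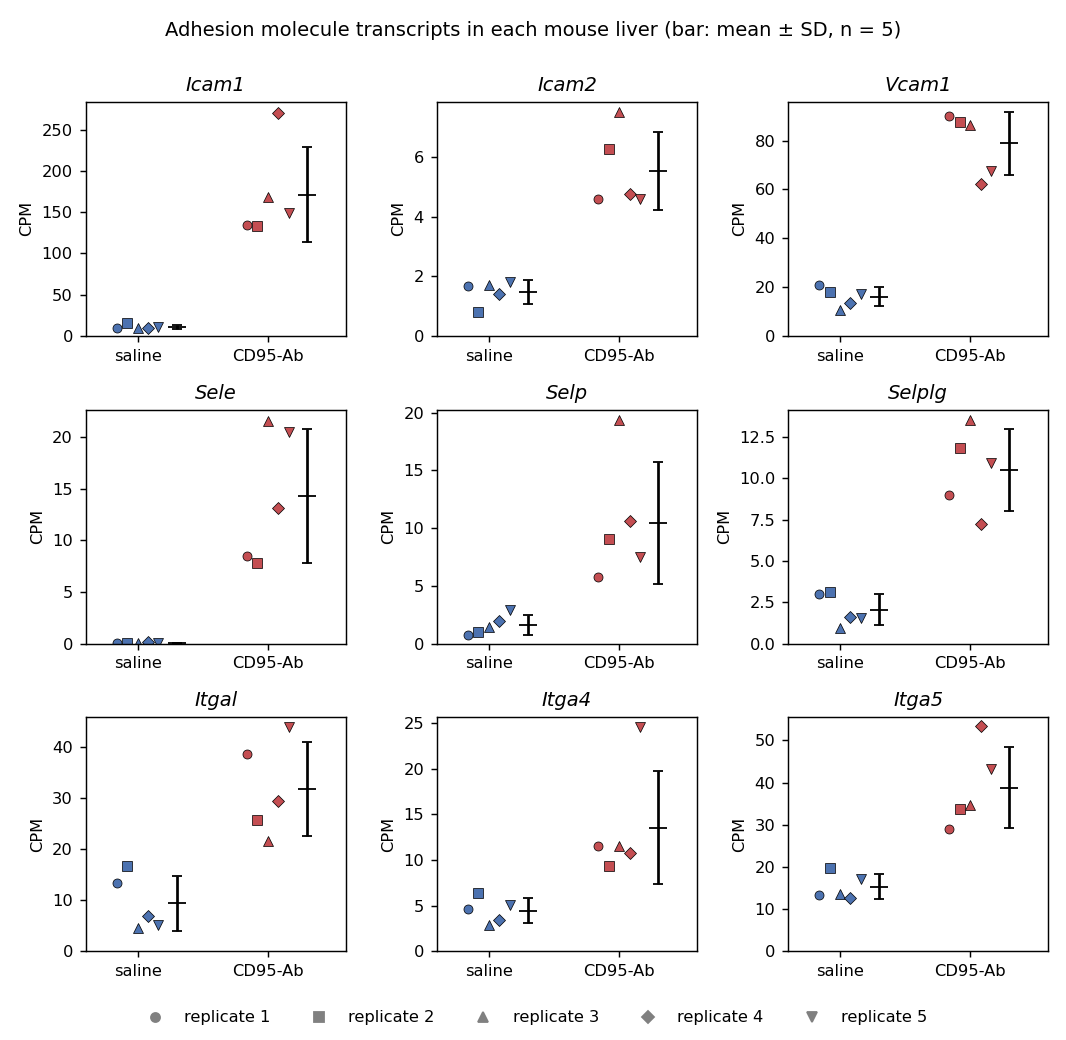
CPM of the 9 adhesion genes (y axis, linear from 0, a separate scale for each gene) in 5 saline-injected and 5 CD95-Ab-injected mice (x axis). Symbols mark replicate numbers and bars give the mean ± SD; the groups do not overlap for any gene, and the narrowest gap is that of Itgal, where the lowest CD95-Ab mouse was 1.28 times the highest control.

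Icam1 (ENSMUSG00000037405; GRCm38 chromosome 9, 21015985 to 21028817) encodes ICAM-1, the main endothelial ligand of leukocyte β2 integrins, which hepatocytes and macrophages can also make. Saline-injected controls 1 to 5 had 9.46, 15.4, 9.33, 9.31 and 11.2 CPM. Mice 1 to 5 injected with CD95-Ab had 135, 133, 168, 271 and 149 CPM. Replicate 4 was the highest after CD95-Ab, and the lowest mouse of that group was 8.68 times the highest control. The mean went from 10.9 ± 2.6 to 171 ± 57 CPM (SD, n = 5 per group), and the log2 fold change was 3.97 (standard error 0.25, FDR = 6.42e-07, edgeR's quasi-likelihood test). By log2 fold change Icam1 ranked 196 among the 13719 tested genes.

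Vcam1 (ENSMUSG00000027962; chromosome 3, 116109949 to 116129688) encodes VCAM-1, the ligand of the α4 integrins. Its controls had 20.7, 18.1, 10.8, 13.7 and 17.0 CPM in replicates 1 to 5. After CD95-Ab it had 90.2, 87.7, 86.6, 62.2 and 67.4 CPM. Replicates 1 to 3 lay close together and replicates 4 and 5 below them, so that the mouse with the most Icam1 had the least Vcam1 of its group. The log2 fold change of Vcam1 was 2.29 (standard error 0.19, FDR = 3.04e-06, edgeR's quasi-likelihood test), from 16.1 ± 3.9 to 78.8 ± 13.0 CPM (SD, n = 5 per group).

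Icam2 (ENSMUSG00000001029; chromosome 11, 106377656 to 106388075) encodes ICAM-2, a ligand of LFA-1 that resting endothelium carries constitutively. It was a low-abundance transcript, at 1.67, 0.80, 1.72, 1.42 and 1.82 CPM in controls 1 to 5. Mice injected with CD95-Ab had 4.59, 6.27, 7.52, 4.76 and 4.58 CPM. Every mouse of the second group was above the first, and the mean went from 1.49 ± 0.41 to 5.55 ± 1.31 CPM (SD, n = 5 per group). The log2 fold change was 1.89 (standard error 0.24, FDR = 7.2e-05, edgeR's quasi-likelihood test), below the additional threshold of 2.

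Sele (ENSMUSG00000026582; chromosome 1, 164048234 to 164057677) encodes E-selectin, which endothelium makes on activation. Controls 1 to 5 held only 2, 1, 1, 3 and 2 counts, which is 0.047, 0.030, 0.028, 0.115 and 0.037 CPM. Mice injected with CD95-Ab held 265, 244, 542, 326 and 926 counts, or 8.50, 7.77, 21.6, 13.2 and 20.5 CPM. E-selectin RNA was therefore at the limit of detection in controls and plain in every mouse of the other group, highest in replicates 3 and 5. Over the pooled counts, 2303 against 9, the ratio of CD95-Ab to saline was 311 (95% exact interval 164 to 681, for counting error only). The fitted log2 fold change of 8.13 (standard error 0.47, FDR = 4.11e-07, edgeR's quasi-likelihood test) depends on the small prior count added to each value and was 7.10 with a prior count of 2. Sele ranked 15 among all tested genes.

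Selp (ENSMUSG00000026580; chromosome 1, 164115264 to 164150026) encodes P-selectin, stored in endothelial cells and platelets for rapid release. Controls 1 to 5 had 0.73, 1.04, 1.47, 1.96 and 2.93 CPM. After CD95-Ab, Selp had 5.78, 9.08, 19.3, 10.6 and 7.48 CPM. Replicate 3 stood above the other 4 mice, and Selp was the most variable of the 9 genes after CD95-Ab, with a coefficient of variation of 50.5%. The log2 fold change was 2.67 (standard error 0.41, FDR = 2.54e-04, edgeR's quasi-likelihood test), from 1.63 ± 0.86 to 10.5 ± 5.3 CPM (SD, n = 5 per group). On the deposited FPKM scale, which also divides by transcript length, the log2 ratio of group means was 1.89, compared to 2.69 in CPM. The noncoding gene Gm16548 lies on the opposite strand within the span of Selp and held a mean of 406 counts in controls and 186 after CD95-Ab, so reads of this pair may have been split by the counting if strand was not used, which the sources used here do not state. Of the platelet markers, 4 of 5 tested were higher, against 25.4% of all tested genes. Gp9 entered the test through the CD95-Ab group alone. Ppbp reached 10 counts in only 2 of 5 controls but in all mice injected with CD95-Ab, so its controls alone would not have kept it. Gp1ba did not pass (log2 fold change 0.37, FDR = 0.465, edgeR's quasi-likelihood test). The summed level of the platelet markers rose from a median of 3.65 CPM (2.48 to 9.42) to 22.1 CPM (10.4 to 33.4). The part of platelets in the change of Selp was not tested.

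Selplg (ENSMUSG00000048163; chromosome 5, 113818536 to 113832644) encodes PSGL-1, the leukocyte ligand of the selectins. In controls 1 to 5 it had 3.01, 3.11, 0.96, 1.62 and 1.58 CPM. In mice injected with CD95-Ab it had 8.99, 11.8, 13.5, 7.23 and 10.9 CPM. The groups did not overlap, and the fitted log2 fold change was 2.35 (standard error 0.31, FDR = 8.59e-05, edgeR's quasi-likelihood test), with means of 2.06 ± 0.96 and 10.5 ± 2.5 CPM (SD, n = 5 per group).

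Itgal (ENSMUSG00000030830; chromosome 7, 127296260 to 127335138) encodes the αL chain of LFA-1. Controls 1 to 5 had 13.4, 16.8, 4.65, 6.93 and 5.17 CPM. After CD95-Ab the 5 mice had 38.7, 25.7, 21.5, 29.4 and 43.9 CPM. Controls 1 and 2 were well above the other 3, and the smallest separation between groups was found here. The log2 fold change of Itgal was 1.76 (standard error 0.36, FDR = 0.00175, edgeR's quasi-likelihood test), with means of 9.39 ± 5.42 and 31.9 ± 9.2 CPM (SD, n = 5 per group).

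Itga4 (ENSMUSG00000027009; chromosome 2, 79255426 to 79333123) encodes the α4 chain of VLA-4 and of the gut-homing integrin α4β7. It had 4.61, 6.40, 2.85, 3.46 and 5.03 CPM in controls 1 to 5. It had 11.5, 9.40, 11.5, 10.7 and 24.6 CPM after CD95-Ab. Replicate 5 lay well above the rest of its group, and without it the log2 fold change fell from 1.60 (standard error 0.29, FDR = 8.95e-04, edgeR's quasi-likelihood test) to 1.27, still a change. On the opposite strand, Cerkl overlaps Itga4, with a mean of 63.0 counts in controls and 85.6 after CD95-Ab.

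Itga5 (ENSMUSG00000000555; chromosome 15, 103344286 to 103366763) had the smallest increase of the 9 genes. Its controls had 13.3, 19.8, 13.6, 12.7 and 17.2 CPM. After CD95-Ab it had 28.9, 33.8, 34.7, 53.4 and 43.2 CPM. Replicate 4 was again the highest, as for Icam1. The log2 fold change was 1.34 (standard error 0.19, FDR = 1.25e-04, edgeR's quasi-likelihood test), which 87.7% of all tested genes did not reach.

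Which mouse was highest differed between genes. Among controls, replicate 2 held the highest level of 5 genes and replicate 3 the lowest level of 5 genes, and the order of the mice was identical for Selplg and Itgal. After CD95-Ab, replicate 3 was highest for 4 genes (Icam2, Sele, Selp and Selplg), replicates 4 and 5 for 2 genes each, and replicate 1 for Vcam1 alone. No mouse was therefore highest throughout.

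Levels of different genes were compared in FPKM, the authors' values per transcript length. In controls, Vcam1 (5.0 ± 1.5 FPKM), Icam1 (4.58 ± 1.40) and Itga5 (3.67 ± 0.89) were the most abundant (SD, n = 5), and each gene's range overlapped that of the next one in the order down to Itga4, at 0.478 ± 0.175 FPKM. Sele stood alone below them, at 0.018 ± 0.013 FPKM. After CD95-Ab the order began with Icam1 (65.6 ± 15.2 FPKM), Vcam1 (23.2 ± 5.7) and Itga5 (8.62 ± 1.53), and the ranges of these 3 genes did not overlap. Sele moved from the last to the fifth place, at 4.79 ± 2.05 FPKM, beside Icam2 (4.67 ± 1.01), Selp (4.62 ± 1.96) and Selplg (4.02 ± 0.95), whose ranges overlapped. Among the genes followed here, Itga4 remained the least abundant integrin chain, at 1.40 ± 0.70 FPKM.

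**Figure D2:**
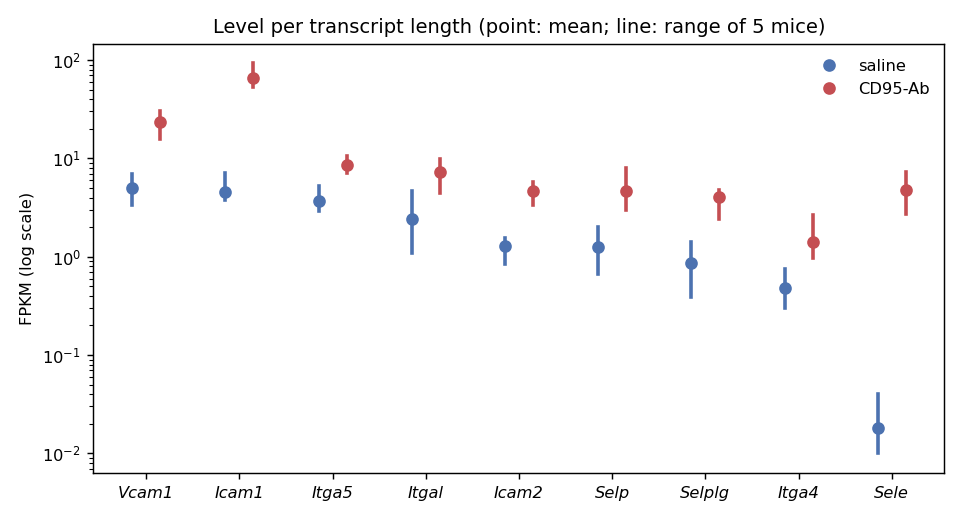
FPKM (y axis, log scale) of the 9 genes, ordered by their mean in saline-injected controls (x axis). Points are means and lines the range over 5 mice; Icam1 passed Vcam1 after CD95-Ab, at 65.6 against 23.2 FPKM, and Sele rose from 0.018 to 4.79 FPKM.

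Markers of the cell types that carry these genes, and of others in the liver, were measured beside them. Among all tested genes, 25.4% were higher and 22.0% were lower, which are the shares to set beside each count that follows. Of 10 endothelial markers, 8 were higher. Their median log2 fold change was 1.35, and their summed level rose from 45.1 to 85.4 CPM in controls to 133 to 268 CPM. Cdh5, VE-cadherin, which defines endothelial cells, rose from 10.3 ± 0.6 to 59.0 ± 18.9 CPM (log2 fold change 2.51), whereas Kdr, a receptor for vascular growth factor, had 12.2 ± 3.6 and 14.9 ± 4.0 CPM (SD, n = 5 per group; log2 fold change 0.29, FDR = 0.336, edgeR's quasi-likelihood test). Of 7 markers of sinusoidal endothelium 6 were higher. All 6 pan-leukocyte markers were higher, and their sum rose from 21.7 to 61.3 CPM to 168 to 226 CPM. Neutrophil markers showed the largest difference among the leukocyte lists, with 7 of 7 tested genes higher. Of these, Ngp, under 10 counts in every control, and Mmp8, at 0 to 18 counts, entered the test through the CD95-Ab group alone. The median log2 fold change of the tested neutrophil markers was 6.02, and the sum of the list was 110 to 465 CPM against 4.20 to 10.8 CPM in controls. Ly6g, a defining neutrophil marker, was too low to be tested, at 0.122 ± 0.042 and 0.336 ± 0.187 CPM (SD, n = 5 per group).

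The median log2 fold changes of the other leukocyte lists lay between 0.81 for Kupffer cells and 2.38 for the pan-leukocyte markers. Of the monocyte and macrophage markers 6 of 8 were higher, of the T and NK cell markers 8 of 10 tested, and of the B cell markers 4 of 5. Kupffer cell markers, those of the resident liver macrophages, were higher in 4 of 7 genes, and the defining marker Clec4f had 91.9 ± 32.4 and 98.4 ± 31.1 CPM (SD, n = 5 per group; FDR = 0.801, edgeR's quasi-likelihood test). Of the hepatocyte markers 2 of 6 were lower and 1 was higher. Stellate cell markers were higher in 5 of 7 genes, cholangiocyte markers in 3 of 4 tested and erythroid markers in 6 of 6, the last with sums of 1064 to 34000 CPM against 135 to 324 CPM. The part of any of these cell types in the changes of the 9 genes was not tested beyond the ratios that follow.

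**Figure D3:**
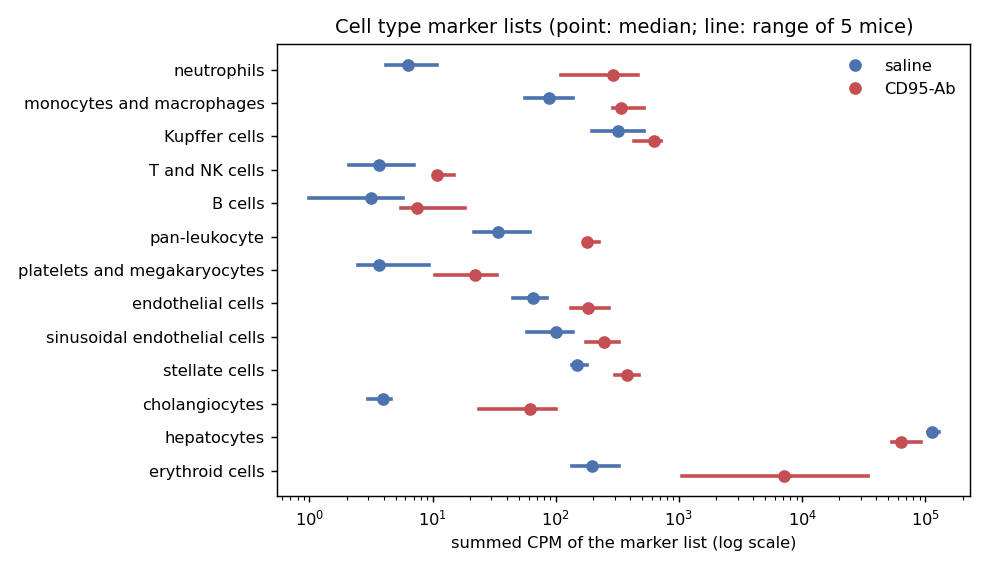
Summed CPM of each cell type marker list (x axis, log scale) in saline-injected controls and after CD95-Ab. Points are medians and lines the range over 5 mice; the ranges of the groups overlap for the Kupffer cell and B cell lists, and the hepatocyte list is the only one that was lower after CD95-Ab.

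To relate the genes to the cells that carry them, endothelial genes were divided by the mean of the 10 endothelial markers and leukocyte genes by Ptprc (CD45), which all leukocytes express, within each mouse and on the log2 scale. Pecam1, Cdh5, Emcn and Esam stood both among these markers and in the list of the cascade below. Icam1 and Sele rose beyond the endothelial markers. Hepatocytes and macrophages can also make ICAM-1, and the part of cells other than endothelium in these ratios was not tested. The log2 ratio of Icam1 went from 1.07 ± 0.66 to 3.67 ± 0.48, a difference of 2.59, and that of Sele from -5.11 ± 0.50 to 0.02 ± 0.51, a difference of 5.14 (SD, n = 5 per group; exact two-sided permutation tests, p = 0.00794 each, the smallest that 5 against 5 allow; 0.0238 after adjustment over 9 ratios). With Cdh5 alone as the reference the differences were 1.48 and 4.02 (adjusted p = 0.0357 for each, exact permutation test). The remaining endothelial genes depended on the reference. Against the marker mean the differences were 0.51 for Icam2, 0.97 for Vcam1 and 1.30 for Selp (adjusted p = 0.0238, 0.0357 and 0.0238, exact permutation tests). Against Cdh5 they were -0.60, -0.14 and 0.18 (adjusted p = 0.0429, 0.714 and 0.714, exact permutation tests). The call for Vcam1 held when saline replicate 2 was left out and was lost when any other mouse was left out, with differences between 0.73 and 1.17 (adjusted p up to 0.0714, exact permutation test). Leaving out any mouse also raises the smallest p that this test allows, here and for the ratios to Ptprc below.

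None of the 4 leukocyte genes was higher relative to Ptprc, which itself went from 8.65 ± 4.32 to 44.8 ± 12.0 CPM (log2 fold change 2.37). The log2 ratio of Selplg to Ptprc was -1.99 ± 0.23 in controls and -2.08 ± 0.43 after CD95-Ab, a difference of -0.09 (SD, n = 5 per group; exact permutation test, adjusted p = 0.698). The integrin chains fell relative to Ptprc, by differences of -0.94 for Itga4 and -1.15 for Itga5 (adjusted p = 0.0238 each, exact permutation tests). For Itgal the difference was -0.59 (adjusted p = 0.0357, exact permutation test), and this call was lost when saline replicate 1, 2, 3 or 4 or CD95-Ab replicate 2, 3 or 5 was left out, with differences between -0.74 and -0.50 over all 10 repeats. It was also lost with the sum of the 6 pan-leukocyte markers as reference, where it was -0.48 (adjusted p = 0.119, exact permutation test). Itga5 is also made by cells other than leukocytes, and their part in its ratio was not tested.

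Of 8 ratios between genes, 4 differed between the groups. The log2 ratio of Icam1 to Icam2 increased by 2.08, that of Sele to Selp by 3.84 (2.29 with a pseudocount of 0.5 CPM in place of 0.1), and that of Vcam1 to Icam1 fell by 1.62 (exact permutation tests, p = 0.00794 and adjusted p = 0.0159 for each over 8 ratios, groups not overlapping). The log2 ratio of Itgal to Itgb2 was 0.87 ± 0.25 in controls and -0.30 ± 0.35 after CD95-Ab (SD, n = 5 per group), again without overlap (adjusted p = 0.0159, exact permutation test). Because other α chains also pair with the product of Itgb2, this ratio does not measure a balance within LFA-1. For the remaining 4 ratios the test was not passed. The difference was 0.22 for Itga4 to Itga5 (adjusted p = 0.46), 0.35 for Itgal to Itga4 (0.354), 0.94 for Itga4 to Itgb1 (0.0762) and 0.72 for Itga5 to Itgb1 (0.0847), all by exact permutation tests.

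**Figure D4:**
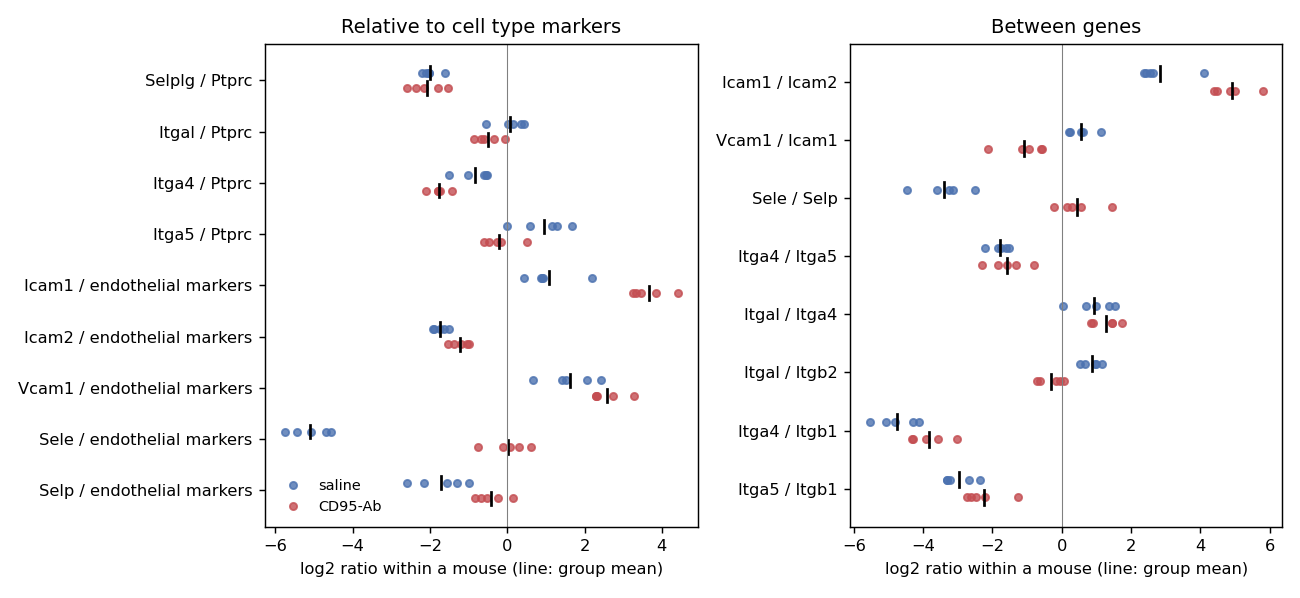
Log2 ratios within each mouse (x axis) of the 9 genes to cell type markers (left) and between genes (right), with 5 saline-injected and 5 CD95-Ab-injected mice as points and the group mean as a line. Icam1, Sele and Selp moved to the right of all controls relative to the mean of the endothelial markers, and the ratio of Itgal to Itgb2 moved to the left of all controls.

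The other genes of the adhesion cascade were taken from a list of 60 further genes in 6 roles. Of the 50 that were tested, 42 were higher, 1 was lower and 7 did not pass, and the median log2 fold change was 1.42. Of the 42, Fut4 was under 10 counts in every control. Tnc and Skap1 reached 10 counts in 3 of 5 controls each, and Itgax in 4 of 5. Their controls alone would not have kept Fut4, Tnc, Skap1 and Itgax in the test. The shares over all tested genes are those given above.

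Integrin partner chains were higher in 10 of 10 tested genes. Itgb2, the common β chain of the leukocyte integrins, rose from 5.13 ± 3.02 to 38.6 ± 8.3 CPM (log2 fold change 2.91, standard error 0.36). Of the α chains that pair with it besides Itgal, Itgam of Mac-1 rose from 0.795 ± 0.291 to 25.1 ± 7.0 CPM (4.96) and Itgax from 0.761 ± 0.466 to 10.1 ± 2.2 CPM (3.71). Itgb3, the β chain of platelet and vascular integrins, had a log2 fold change of 2.07 and Itgb7, the partner of Itga4 on gut-homing lymphocytes, of 1.62. Itgb1, partner of both Itga4 and Itga5, was abundant throughout and rose from 121 ± 19 to 185 ± 37 CPM (log2 fold change 0.62, FDR = 0.0107, edgeR's quasi-likelihood test).

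Genes of selectin ligands, vascular mucins and further molecules grouped with them were higher in 8 of 9 tested cases. The log2 increase was 2.73 for Cd24a, a P-selectin ligand, 2.65 for Spn (leukosialin) and 2.62 for Cd44, a hyaluronan receptor. Glg1, an E-selectin ligand, had 26.2 ± 7.9 and 31.0 ± 10.7 CPM (SD, n = 5 per group) and did not pass. Of the enzymes that build selectin ligands, 6 of 8 tested were higher. The fucosyltransferase gene Fut4 rose from 0.135 to 0.796 CPM (log2 fold change 2.55) and was under 10 counts in every control. Values were 1.93 for Gcnt1, 1.75 for St3gal6 and 1.13 for B4galt1. The tyrosine sulfotransferases that modify PSGL-1 did not pass, with log2 fold changes of -0.40 for Tpst1 and -0.18 for Tpst2.

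Ligands of the immunoglobulin superfamily and of endothelial junctions were higher in 8 of 9 tested genes. The largest log2 fold changes were those of Mcam (3.22), Cdh5 (2.51), Jam2 (2.28) and Esam (1.96), all carried by endothelium. The gene that was lower was Cd99l2, a homologue of CD99 in transmigration, from 22.9 ± 3.3 to 13.0 ± 2.0 CPM (SD, n = 5 per group; log2 fold change -0.82, FDR = 7.57e-04, edgeR's quasi-likelihood test). Madcam1, the ligand of α4β7, and Icam4 and Icam5, further ICAM genes, were too low to be tested.

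Genes of integrin activation were higher in 6 of 9. Apbb1ip, which encodes the Rap1 effector RIAM, had a log2 fold change of 2.41, the small GTPase gene Rap1b of 1.47, kindlin-3 (Fermt3) of 1.33 and Rassf5 of 1.30. Rap1a, Rasgrp2 and Cyth1 did not pass. Of the matrix ligands of integrins, 4 of 5 were higher. Thbs1 (thrombospondin 1) rose from 1.92 ± 0.66 to 191 ± 27 CPM (log2 fold change 6.63) and Tnc (tenascin C) from 0.438 ± 0.282 to 12.1 ± 4.5 CPM (4.73). Spp1, osteopontin, had a log2 fold change of 1.46, and Fn1, the fibronectin bound by α4 and α5 integrins, went from 1119 ± 137 to 1675 ± 438 CPM (SD, n = 5 per group; log2 fold change 0.58). Vtn, vitronectin, had a log2 fold change of -0.18 and did not pass.

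**Figure D5:**
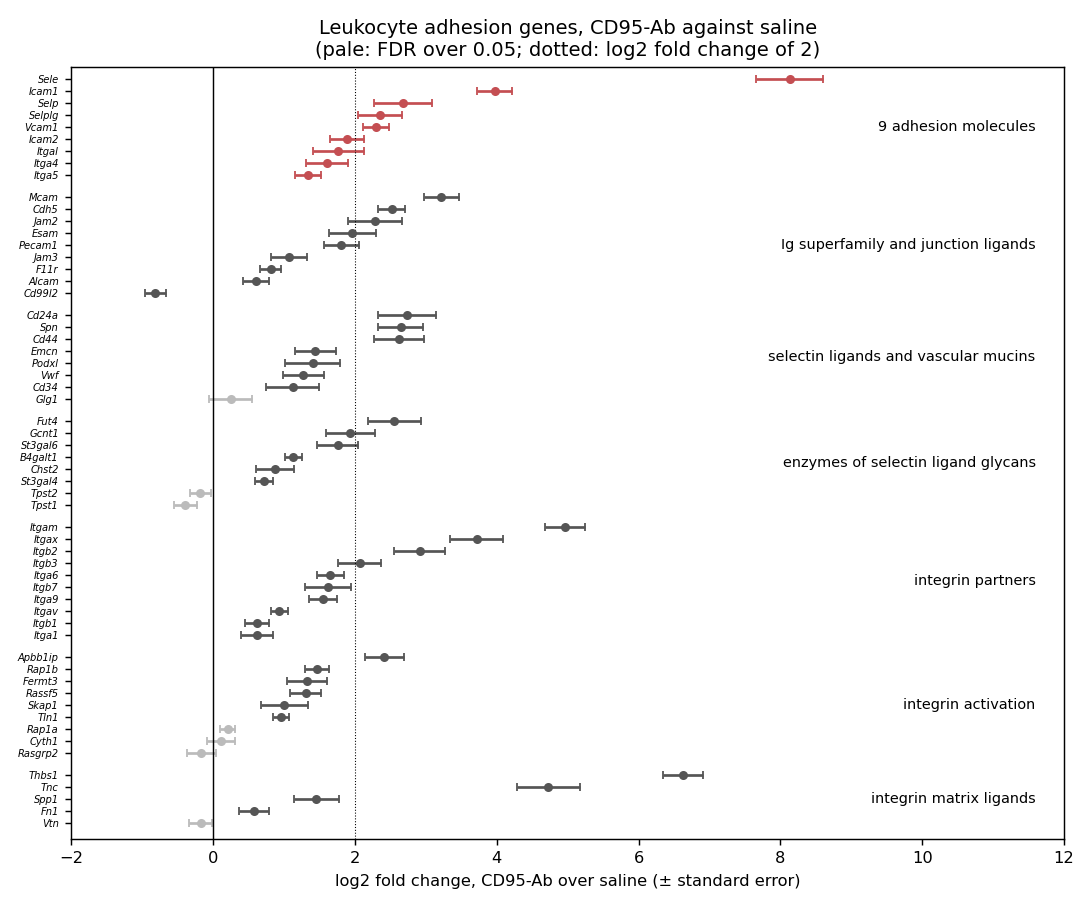
Log2 fold change of CD95-Ab over saline with its standard error (x axis) for the 9 adhesion genes and 49 of the 50 tested genes of the cascade, grouped by role (y axis). Pale points have an FDR over 0.05 and the dotted line marks a log2 fold change of 2; Cd99l2 is the only dark point left of 0.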

How the data were processed

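Liver RNA of 10 mice, 5 per group, was sequenced by the authors in pairs of 100 bases from 500 ng of RNA, and groups and replicate numbers were read from the sample titles. Reads were assigned to genes with RSEM 1.2.19. Per gene, the authors deposited expected counts, which are RSEM's estimated reads without normalization and were whole numbers, and FPKM, in which they are divided by effective transcript length and library total. FPKM were used only to compare levels between genes. The paper names a human annotation, but the identifiers are those of mouse, and build and mouse release are not given in the sources used here. Symbols and positions came from GENCODE mouse release 21 (GRCm38), which named 37606 of 38922 identifiers, and promoter sequences came from RefSeq.

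Genes were kept by filterByExpr (minimum count of 10) and compared with edgeR 4.0.16 in R 4.3.3, with TMM factors, the quasi-likelihood test and no term beside group. Standard errors are the log2 fold change over the square root of F. Ratios within a mouse used log2(CPM + 0.1) and exact two-sided permutation tests with Benjamini-Hochberg adjustment in scipy 1.17.1. The code was tested on simulated counts. The 9 genes, the list of the cascade and the marker lists were chosen with earlier results of these data known. Named from each role of the cascade were up to 4 genes with the largest changes, with Itgb1, Itgb2 and Itgb7, except 1 gene that is counted in its list but not reported here. Cd99l2, Glg1, Tpst1, Tpst2, Vtn, Rap1a, Rasgrp2, Cyth1, Skap1, Madcam1, Icam4 and Icam5 were named after their values were seen. Cd99 of the list was not matched by symbol. Alternatives were DESeq2 1.42.0, the likelihood ratio test, other scalings and filters, a prior count of 2, an FDR of 0.01, the replicate number as a block, other references and a pseudocount of 0.5 for ratios, and each mouse left out in turn. Replicates are separate mice. Intervals cover counting error only.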

Additional observations from a re-analysis of the deposited data

Results flagged for a closer look

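Of 18 sets of 5 mice (9 genes in each group), 2 held a mouse whose distance from its nearest neighbour took up more of the range than Dixon's 95% limit of 0.71 allows, on the log2(CPM + 0.1) scale. Chance flags about 1 in 20 such sets. Itga4 in CD95-Ab replicate 5, with 24.6 CPM, lay 0.786 of the range away from the next mouse. Sele in saline replicate 4, with 0.115 CPM, lay 0.736 of the range away, a gap that rests on 3 counts against 1 or 2 counts in the other controls.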

How the results depend on the processing

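All 9 genes stayed higher and within an FDR of 0.05 in the 20 alternatives, except that Sele could not be tested when at least 10 counts were asked of every mouse, which left 8 genes. The largest FDR in any alternative was 0.00633, for Itgal. A log2 fold change of at least 2 was reached by 4 to 6 of them. The higher genes of the cascade numbered 42, between 34 and 43 over the alternatives. The lower genes numbered 1, but 2 with DESeq2, with upper quartile factors and with the replicate number as a block, and 1 to 2 when a mouse was left out (2 without saline replicate 5 or CD95-Ab replicate 1 or 2), Tpst1 being the added gene each time. With other references (Cdh5 alone, or the sum of the pan-leukocyte markers), 5 of 9 ratios to cell markers differed between the groups in place of 8, and the differences of Icam2 and Vcam1 turned to -0.60 and -0.14. When a mouse was left out, which also raises the smallest p the test allows, 6 to 7 of these ratios passed, and 4 of 8 ratios between genes passed as before. A pseudocount of 0.5 changed no call among the ratios but reduced the difference for Sele from 5.14 to 3.38 and that of Sele to Selp from 3.84 to 2.29. The replicate numbers of the labels were not treated as pairs, since same-numbered mice deviated with correlations from -0.27 to 0.26 and 4 of 10 mice correlated best with their own number. With the replicate block, 5987 genes in place of 6495 had an FDR of 0.05 or less, and 9 of the 9 genes and 39 of the cascade were higher. Sele in controls rests on 3 counts or fewer per mouse.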

Other observations

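For each of the 9 genes, the tested genes with the most similar profile over the 10 mice were found by the root mean square difference of log2 CPM after centring each gene, a description that is dominated by the difference between groups. Icam1 was closest to Relb, a subunit of NF-κB, with a difference of 0.20 log2 units over 10 mice. Tifa, an adaptor of that pathway, and Mrgpra2a, at a mean of 0.006 CPM in controls, followed (0.29 each). Vcam1 was closest to Cxcl16 (0.15), a chemokine anchored in the membrane. Icam2 was closest to Gimap6, then to Serpina3h and to Pecam1, an endothelial adhesion molecule (0.21 each). Selplg was closest to Plac8 (0.18) and Siglece (0.19), both expressed in myeloid cells. Itga5 was closest to Mdm2 (0.17), a target of p53, and Nfe2l2 (0.17), which encodes NRF2. Selp was closest to the histone gene H3f3b (0.22), and Itgal to Nfam1 (0.22). Itga4 had the unnamed gene 5430427O19Rik first (0.21), followed by Kctd12 (0.24) and Zeb2 (0.25). No gene came as close to Sele, where the smallest difference was 0.56, to Clec4e, a lectin receptor of myeloid cells. Among the 9 genes the closest pair was Vcam1 and Selplg (0.32), followed by Itga4 and Itga5 (0.41), and the farthest was Sele and Itga5 (2.88).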
